A study of Mus musculus with 20 samples.

Results

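The genes described here are the JAK kinases Jak1, Jak2 and Jak3 and the STAT factors Stat2, Stat3, Stat4, Stat5a, Stat5b and Stat6, chosen by name as a gene family. All 9 were present among the 23992 gene symbols measured, each represented by its longest transcript, and all 9 passed the filter on low counts in both experiments. RNA-sequencing was done on splenic CD8+ T cells of wild-type C57BL/6J mice aged 6 to 8 weeks, purified by negative selection, activated for 48 hours through CD3 and CD28 and rested overnight. The cells were then given murine IL-21 (mIL-21) or a designed protein that engages the same receptor (21h10) for 24 hours, or were left without cytokine (unstimulated, for which the labels give no time). Experiment 1 used 100 pM and 1 nM of each protein and experiment 2 used 10 nM and 100 nM, each with unstimulated cells of its own, so that each experiment held 5 groups of duplicate libraries (n = 2 per group, 20 libraries in all). All groups, unstimulated cells included, had been activated beforehand, and these in vitro cultures therefore describe activated and not naive cells. The study states in general that replicates were independent and came from separate tissue preparations or donors, whereas the labels call these libraries duplicates and name no mouse or culture for each. The p-values measure only the spread between these libraries, part of which may be technical.

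JAK kinases are tyrosine kinases bound to the inner tails of cytokine receptors. When a cytokine pairs the receptor chains, the kinases phosphorylate latent STAT proteins, which dimerize, enter the nucleus and switch on target genes. IL-21 acts through its own receptor chain and the common gamma chain, which carry the kinases Jak1 and Jak3, and in T cells it is best known for activating STAT3, with a lesser part for STAT5. STAT4 is the classical mediator of IL-12, STAT6 of IL-4, and STAT2 of type I interferon, while Jak2 serves receptors such as those for IL-12 and interferon gamma. The libraries measured the transcripts of these proteins and not their phosphorylation.

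Between 27072917 and 94070730 reads per library fell on genes. Changes were tested with edgeR's quasi-likelihood test on TMM-scaled counts, and the threshold was an adjusted p (Benjamini-Hochberg) under 0.05 over all genes tested, among 13974 genes of experiment 1 and 13772 of experiment 2. Gene levels varied more between duplicates in experiment 2 (biological coefficient of variation 8.80%) than in experiment 1 (4.32%), so that a change of a given size was easier to detect in the latter. Normalised counts (CPM, scaled by library) below are on this scale and serve comparisons of 1 gene between groups of 1 experiment. RPKM, which also divides by transcript length, serves comparisons between genes. TMM holds the median gene level. Scaled by mapped reads in its place, the median log2 fold change of all genes against unstimulated cells ranged from -0.32 to -0.19 in experiment 2 and from -0.12 to 0.08 in experiment 1, and changes are given here relative to that median. Markers of CD8 T cells were all present, with a summed RPKM of 1469 to 2243 for the 8 markers. Of markers of other cells, the summed RPKM reached 1.104 for 2 genes of CD4 T cells (Cd4 and Foxp3, the latter under 1 RPKM throughout), 0.461 for 2 of NK cells and 0.325 for 2 of erythroid cells. That of 4 B cell genes was 2.77 to 10.502, with Cd79b above 1 RPKM and the other 3 under it. The summed RPKM of 4 myeloid markers was 3.39 to 3.64 in unstimulated and 16.3 to 34.4 in treated cells of experiment 1, and 4.63 to 4.81 and 12.3 to 22.7 in experiment 2. This rise accompanied every response to cytokine reported below and lay in Cd68 and Itgam, the other 2 genes found, Lyz2 and Csf1r, being under 1 RPKM in all libraries. Of the 5 myeloid markers listed, Adgre1 was not found under that symbol. Its part in the results was not tested, and in bulk RNA a change in the number of a kind of cell and in RNA per cell cannot be told apart.

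Stat5a and Stat5b are neighbours on chromosome 11 (GRCm38, 100859351 to 100885169 and 100780731 to 100859004) that encode near-identical proteins, and how far their reads can be kept apart bears on every value given for them. In an alignment of 2337 columns of their longest transcripts, 90.46% of the bases were identical, and the longest identical run was 324 bases. Of all windows of 50 bases in Stat5a, 15.84% occurred unchanged in Stat5b, and of those in Stat5b 11.77% occurred in Stat5a. For windows of 100 bases these shares were 6.99% and 5.18%. The 60-base stretch without gaps that differs most between them lies in coding sequence, in exon 20 of Stat5a (chr11:100883836-100883895, plus strand) and exon 19 of Stat5b (chr11:100783161-100783220, minus strand). It is shown because reads from such stretches distinguish the genes, and the 19 differing bases are in capitals.
Stat5a: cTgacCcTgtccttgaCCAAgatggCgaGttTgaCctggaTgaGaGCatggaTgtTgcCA
Stat5b: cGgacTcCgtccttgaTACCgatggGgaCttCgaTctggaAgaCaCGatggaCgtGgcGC
How the deposited counts treat reads that match both genes, and whether they use strand, is not given in the sources used here. Among the other members, Stat4 shares 26.7% of its exonic bases with Gm28177 and Jak3 7.55% with Insl3, both on the same strand. On opposite strands Stat3 and Stat5a overlap by 72 bases at their ends, Stat6 shares 0.909% with Nab2 and Jak1 0.055% with Raver2, whereas Stat2, Stat5b and Jak2 share none.

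Per length, every member was well expressed in every group, with mean RPKM values between 11.1 and 131. In unstimulated cells of experiment 1 the order was Stat4 (63.1 RPKM), Jak1 (57.7), Stat6 (38.6), Stat3 (37.8), Stat5b (24.8), Jak2 (24.6), Stat5a (24.0), Jak3 (23.3) and Stat2 (11.1). In this order Stat6 and Stat3 did not differ beyond their duplicates, nor did any neighbours from Stat5b to Jak3. In unstimulated cells of experiment 2 the highest were again Jak1 (104) and Stat4 (94.6), followed by Stat3 (48.5), and Stat2 (18.0) and Stat5a (18.3), which overlapped, were lowest. At 1 nM of 21h10 the order was led by Stat3 (131), Stat5a (82.2), Jak1 (76.7) and Jak3 (65.3), with Stat4 (40.6) overlapping Jak2 (40.9) further down. In the treated groups of experiment 2 Jak1 (97.0 to 129), Stat4 (71.3 to 83.6) and Stat3 (48.4 to 62.0) kept the first places and Stat2 (14.6 to 16.6) the last.

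**Figure D1:**
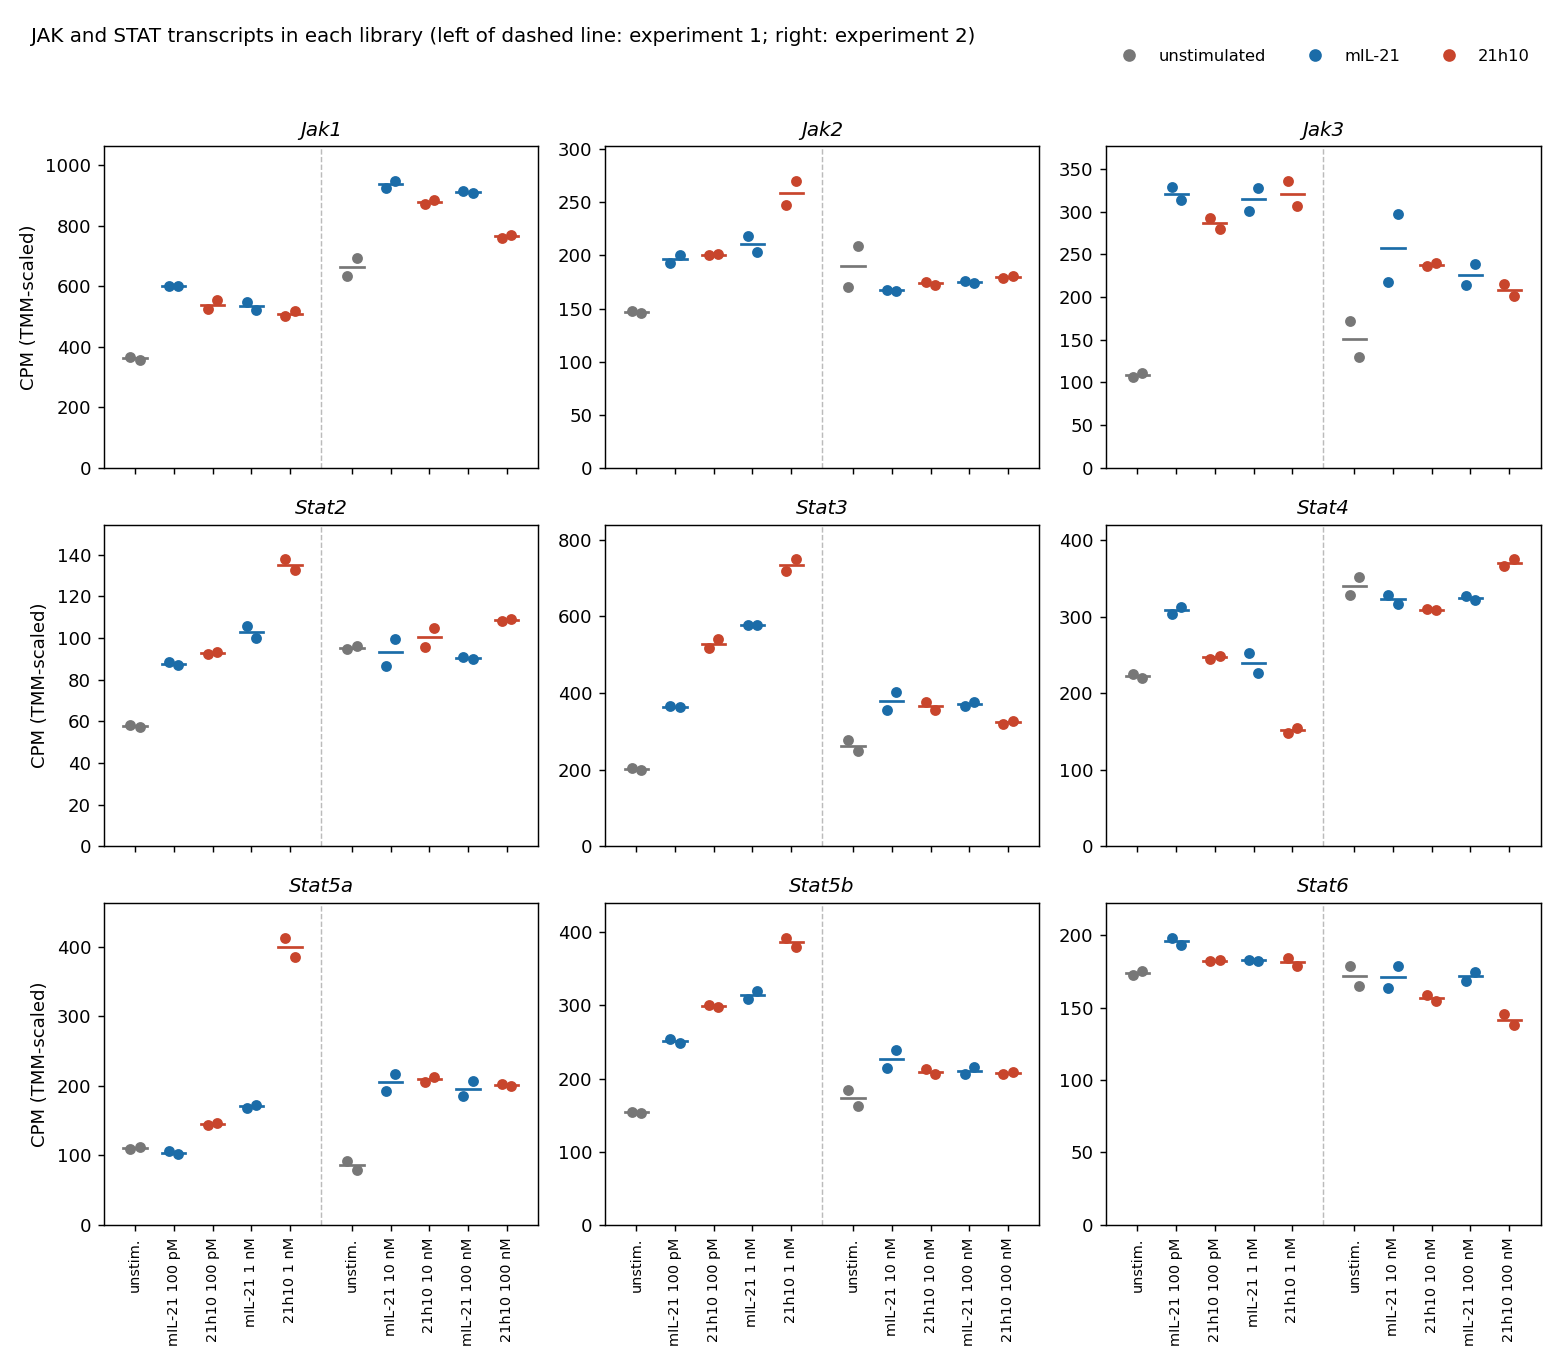
CPM (y axis, TMM-scaled, from 0) of the 9 genes in each of the 20 libraries, by group (x axis), with points for the duplicates and a line at their mean. The dashed line separates experiment 1 from experiment 2, whose CPM values were scaled apart. Stat3, Stat5b and Stat2 stand higher in each group of experiment 1 than in the group to its left (unstimulated, mIL-21 and 21h10 at 100 pM, mIL-21 and 21h10 at 1 nM), Stat4 is lowest with 21h10 at 1 nM, and Stat6 is nearly level.

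Jak1, the kinase bound by the IL-21 receptor chain, rose with cytokine in both experiments and was highest at the lowest dose of mIL-21. Its level was 366 and 357 CPM in the unstimulated duplicates of experiment 1. The mIL-21 duplicates had 601 and 599 CPM (100 pM) and 547 and 522 CPM (1 nM), those of 21h10 525 and 553 (100 pM) and 501 and 517 (1 nM). All treated libraries stood above both unstimulated ones, and those given mIL-21 at 100 pM stood above all others. In experiment 2 the unstimulated cells had 634 and 693 CPM and the treated groups between 760 and 948, again without overlap. Its log2 fold changes against unstimulated cells were 0.49 to 0.73 in experiment 1 and 0.20 to 0.50 in experiment 2, and all 8 passed the threshold (adjusted p 0.0327 or lower, edgeR's quasi-likelihood test).

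Jak3, the kinase of the common gamma chain, rose the most among the kinases and did so already at the lowest dose. Unstimulated cells of experiment 1 had 106 and 111 CPM, and the 4 treated groups had means of 286 to 321 CPM. Their individual libraries ranged from 280 to 336 CPM, and the mIL-21 libraries at 100 pM and 1 nM overlapped. Against unstimulated cells mIL-21 gave log2 fold changes of 1.57 ± 0.06 (SE) at 100 pM and 1.54 ± 0.06 at 1 nM, and 21h10 gave 1.40 ± 0.06 and 1.57 ± 0.06, the largest adjusted p being 1.83e-13 (edgeR's quasi-likelihood test). In experiment 2 the duplicates lay further apart, with 173 and 129 CPM in unstimulated cells and 218 and 297 with mIL-21 at 10 nM. There the log2 fold changes were 0.47 to 0.77, with SE 0.13 each, and all passed the threshold. Without the second unstimulated library, the value for mIL-21 at 100 nM was 0.39, and that for 21h10 at 100 nM was 0.27 and missed the threshold (adjusted p = 0.096, edgeR), as it did without the first library of 21h10 at 100 nM (0.40, adjusted p = 0.0719). Insl3, with which Jak3 shares exonic bases, was at 5.21 ± 0.912 CPM (SD) in unstimulated and at 15.7 to 18.7 CPM in treated cells of experiment 1, and its reads may in part be those of Jak3.

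Jak2, which is not attached to the IL-21 receptor chains, rose in experiment 1 and did not pass the threshold in experiment 2. Its unstimulated duplicates had 148 and 146 CPM, and mIL-21 gave 192.9 and 200.1 CPM at 100 pM and 219 and 203.1 at 1 nM. 21h10 gave 201 CPM in both libraries at 100 pM and 247 and 270 at 1 nM, where both exceeded all others. Its log2 fold changes against unstimulated cells were 0.42 to 0.82. In experiment 2 the treated groups had 167 to 181 CPM in individual libraries, and of the unstimulated duplicates 1 lay among them (170) and 1 above (209.01). Here log2 fold changes of -0.18 to -0.07 did not pass the threshold. Without the first unstimulated library they were -0.32 (10 nM) and -0.26 (100 nM) for mIL-21 and -0.27 and -0.22 for 21h10, and each passed. Without the second they were -0.03 and 0.04 for mIL-21 and 0.02 and 0.07 for 21h10, so that their direction rested on these 2 libraries.

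Stat3, the main factor downstream of IL-21, was the most abundant STAT transcript in 3 of the 4 treatments of experiment 1. From 203.2 and 198 CPM without cytokine it rose to 365 and 362 (100 pM) and 578 and 577 (1 nM) in cells given mIL-21, and to 518 and 540 (100 pM) and 720 and 749 (1 nM) in cells given 21h10. None of these groups overlapped. Its log2 fold changes against unstimulated cells were 0.86 ± 0.05 (SE) and 1.52 ± 0.05 for the doses of mIL-21 and 1.40 ± 0.05 and 1.87 ± 0.05 for those of 21h10, a 1.81-fold to 3.66-fold rise. In experiment 2 it was at 276 and 248 CPM without cytokine and between 320 and 402 in treated libraries, with log2 fold changes of 0.30 to 0.53. All 8 values passed the threshold (adjusted p 0.00729 or lower, edgeR's quasi-likelihood test). That of 21h10 at 100 nM missed it without the second library of its group (0.29, adjusted p = 0.0594, edgeR) and was -0.0011 when scaled by mapped reads.

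Stat5a, which relays IL-2 and other gamma chain cytokines, did not pass the threshold at the lowest dose of mIL-21 and reached the largest span of any member in experiment 1. Unstimulated libraries had 109 and 112 CPM. At 100 pM the level was 105 and 101 CPM under mIL-21 and 143.3 and 146 under 21h10, and at 1 nM it was 169 and 173 under mIL-21 and 414 and 386 under 21h10. The groups did not overlap, and the libraries of 21h10 at 1 nM stood apart from all others. Against unstimulated cells the log2 fold changes were -0.09 ± 0.05 (SE) and 0.63 ± 0.05 for the doses of mIL-21, and 0.39 ± 0.05 and 1.86 ± 0.05 for those of 21h10. The first of these had an adjusted p of 0.0841 (edgeR's quasi-likelihood test), which became 0.0349 and 0.0385 without either library of 21h10 at 1 nM, at log2 fold changes of -0.10 and -0.09. In experiment 2 the unstimulated duplicates had 91.9 and 78.9 CPM and the 8 treated libraries 185 to 218 CPM. With 1.19 to 1.29, its log2 fold changes there were the largest of the 9 members in each treatment, at a 2.29-fold to 2.45-fold rise.

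Stat5b, its near-identical neighbour, rose in every treatment and in smaller steps. In experiment 1 the unstimulated duplicates had 155 and 153 CPM. mIL-21 at 100 pM gave 254 and 249 and 21h10 gave 300.1 and 298, whereas at 1 nM these were 309 and 320 and 393 and 380.3, and no groups overlapped. Compared with unstimulated cells the log2 fold changes ran from 0.71 to 1.33. In experiment 2 they were 0.26 to 0.38, with 184 and 163 CPM in unstimulated and 205.95 to 239 CPM in treated libraries. Those of 21h10 were -0.0038 at 10 nM and -0.045 at 100 nM when scaled by mapped reads. Several rested on single libraries. Without the second unstimulated library the values were 0.19 for mIL-21 at 100 nM, 0.18 for 21h10 at 10 nM and 0.16 for 21h10 at 100 nM, and none of the 3 passed. The call was also lost without the second library of mIL-21 at 100 nM (0.25) and without either library of 21h10 at 10 nM (0.24 and 0.29) or at 100 nM (0.25 each).

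Stat2, the partner of interferon signalling, followed the order of Stat3 at a lower level. Its level was 58.2 and 57.2 CPM in unstimulated libraries, then 88.5 and 86.9 (mIL-21) and 92.3 and 93.4 (21h10) at 100 pM, and 106 and 99.8 (mIL-21) and 137.9 and 133 (21h10) at 1 nM. The groups did not overlap, and the log2 fold changes against unstimulated cells were 0.60 to 1.23. In experiment 2 the values were 94.7 and 96.1 CPM without cytokine and 86.7 to 109 CPM with it, and log2 fold changes of -0.08 to 0.19 did not pass the threshold.

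Stat4, the factor of the IL-12 pathway, was the only member called lower than in unstimulated cells in experiment 1, with 21h10 at 1 nM. Cells without cytokine had 225 and 220 CPM and cells given mIL-21 304 and 313 (100 pM) and 253 and 226 (1 nM). Cells given 21h10 had 245 and 249 CPM (100 pM) and 149 and 154 CPM (1 nM). The last group lay below all other libraries and the group of mIL-21 at 100 pM above them. Against unstimulated cells the log2 fold change was 0.47 ± 0.05 (SE) under 100 pM of mIL-21 and -0.55 ± 0.05 under 1 nM of 21h10, both past the threshold. The value of 0.15 for 21h10 at 100 pM passed it with an adjusted p of 0.0123 (edgeR's quasi-likelihood test), but not without the second unstimulated library (0.13, adjusted p = 0.0928) or the second of its own group (0.14, adjusted p = 0.0706). The value of 0.11 for mIL-21 at 1 nM did not pass, and did so without the second library of its group (0.18) or either library of 21h10 at 1 nM (0.11 each). In experiment 2 the log2 fold changes of -0.14 to 0.12 did not pass, with 328 and 352 CPM in unstimulated and 308 to 375 in treated libraries. Without the first unstimulated library that of 21h10 at 10 nM was -0.19 and passed.

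Stat6, the factor of the IL-4 pathway, changed the least of the members in experiment 1. Its libraries ranged from 172 to 198 CPM there, the highest being those of mIL-21 at 100 pM (198 and 193.4), whose log2 fold change of 0.17 ± 0.04 (SE) was the only 1 to pass the threshold in that experiment. In experiment 2 it was at 179 and 165 CPM in unstimulated cells and at 146 and 137.7 with 21h10 at 100 nM, a log2 fold change of -0.28 ± 0.08 that passed the threshold (adjusted p = 0.0097, edgeR). It did not pass without the second library of that group (-0.24, adjusted p = 0.0992). In the other 3 treatments its log2 fold changes of -0.13 to -0.00 did not pass.

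Counted over the members, in experiment 1 the threshold against unstimulated cells was passed by 8 of 9 for each protein at 100 pM, and at 1 nM by 7 of 9 for mIL-21 and 8 of 9 for 21h10. Over all genes tested the shares were 77.7% (mIL-21) and 81.6% (21h10) at 100 pM and 80.1% and 80.3% at 1 nM, so that passing alone does not set the members apart. The calls were all for higher levels but for that of Stat4 with 21h10 at 1 nM, whereas 38.3%, 40.2%, 39.9% and 38.3% of all genes in that order were called higher. The median log2 fold change of the members was 0.60, 0.58, 0.63 and 1.23, beside -0.00, -0.01, 0.00 and -0.04 over all genes. Taken without sign, the members' medians were the same values and those of all genes 0.61, 0.67, 0.67 and 0.69. In experiment 2, Jak1, Jak3, Stat3, Stat5a and Stat5b were called higher in all 4 treatments and Stat6 lower with 21h10 at 100 nM. This gave 5 of 9 for both doses of mIL-21, beside 46.2% of all genes at 10 nM and 46.2% at 100 nM, with 22.5% and 22.5% of all genes called higher. For 21h10 it gave 5 of 9 at 10 nM, beside 50.1% (25.2% called higher), and 6 of 9 at 100 nM, beside 50.8% (25% called higher). The members' medians were 0.38 and 0.28 for mIL-21 and 0.27 and 0.20 for 21h10, beside -0.01, -0.01, -0.00 and -0.02 over all genes. Taken without sign, the members' medians were 0.38, 0.28, 0.27 and 0.26, below those of all genes, 0.39, 0.40, 0.42 and 0.42. Scaled by mapped reads, 23.3% to 29.8% and not 48.7% to 50.3% of all genes called in these 4 comparisons were higher, Jak2 was called lower in all 4 (-0.39 to -0.33), Stat4 in 3 (-0.41 to -0.26, not for 21h10 at 100 nM), Stat2 with mIL-21 at 100 nM (-0.30) and Stat6 with 21h10 at 10 nM (-0.40), and Stat5b was called in none. Calls were also lost for Jak1 (0.14) and Stat3 (0.21) with 21h10 at 10 nM, for Jak1 and Stat3 with 21h10 at 100 nM, and for Jak3 at 100 nM of mIL-21 (0.35) and of 21h10 (0.16). For 21h10 at 100 nM the call of Jak1 was weak. At a log2 fold change of 0.20 it was lost without the first unstimulated library (0.13) and without any of 6 treated libraries, namely both of mIL-21 at 100 nM, of 21h10 at 10 nM and of 21h10 at 100 nM (0.19 to 0.20), and it was -0.10 when scaled by mapped reads. These responses share their unstimulated libraries within an experiment and are given side by side without a measure of their likeness.

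**Figure D2:**
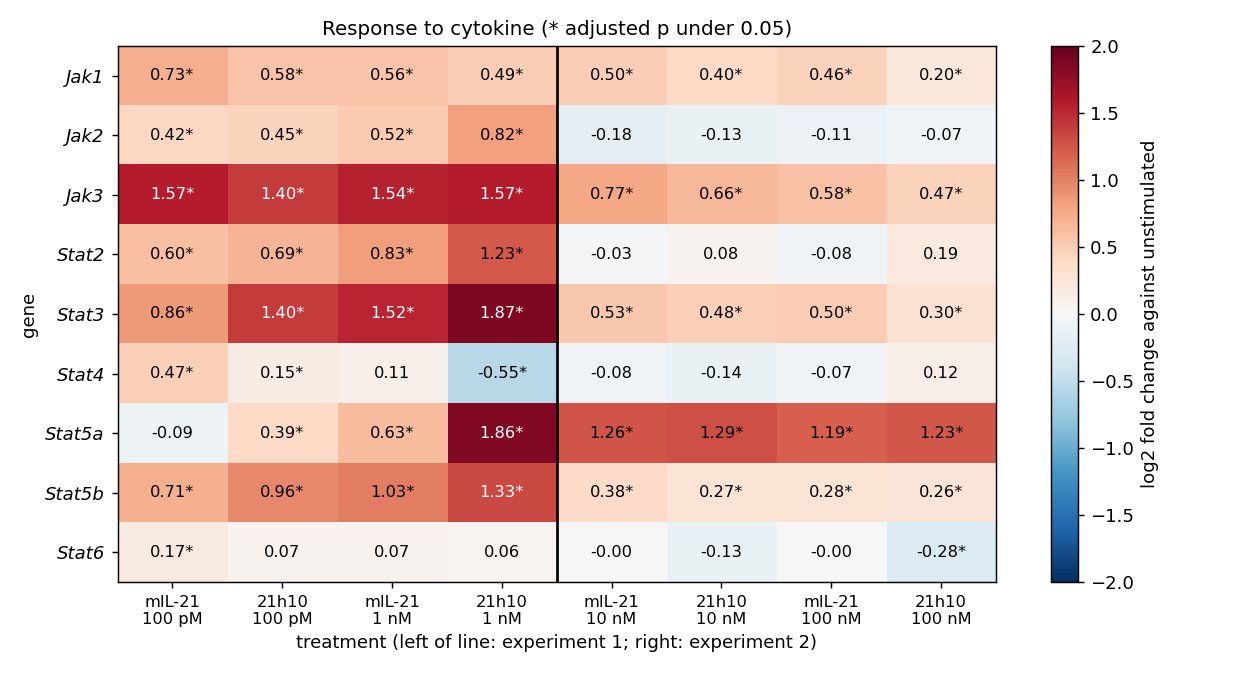
Log2 fold change (colour and printed value) of the 9 genes (rows) in each treatment (columns) against the unstimulated cells of the same experiment, with an asterisk where edgeR's adjusted p was under 0.05. Jak3 is near 1.5 in every column of experiment 1, Stat5a goes from -0.09 to 1.86 there and stays near 1.2 in experiment 2, and Stat4 goes from 0.47 to -0.55.

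The study used these cells to examine how 21h10 affects gene expression and effector differentiation. It compared 21h10 with mIL-21 at the same dose, and 100 pM of the former with 1 nM of the latter. At 100 pM, 21h10 gave higher Stat3, Stat5a and Stat5b and lower Stat4, Jak1 and Jak3 than mIL-21. The log2 fold changes were 0.54 ± 0.04 (SE) for Stat3, 0.49 ± 0.05 for Stat5a, 0.25 ± 0.04 for Stat5b, -0.32 ± 0.05 for Stat4, -0.17 ± 0.06 for Jak3 and -0.15 ± 0.05 for Jak1. These 6 of 9 passed the threshold, beside 38.6% of all genes, and 3 were higher and 3 lower, beside 19.6% and 19% of all genes (adjusted p from 5.93e-08 for Stat3 to 0.0247 for Jak3, edgeR's quasi-likelihood test). Jak2 (0.03), Stat2 (0.08) and Stat6 (-0.10) did not pass, with 95% confidence intervals of -0.08 to 0.14, -0.02 to 0.18 and -0.19 to -0.01. The calls of Jak1 and Jak3 rested on single libraries. That of Jak1 was lost without either library of mIL-21 at 100 pM (-0.15 and -0.16) or the first of 21h10 at 100 pM (-0.12), and that of Jak3 without any of these 4 libraries (-0.20 to -0.13), whereas Stat6 passed without either library of 21h10 at 1 nM (-0.10).

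At 1 nM the log2 fold changes were larger in size for Stat5a, Stat4, Stat2, Jak2 and Stat5b and smaller for the other 4 members. In the test of this change given below, Stat5b, Jak1, Jak3 and Stat6 did not pass the threshold. Stat5a was 2.34-fold higher with 21h10 at 1 nM (log2 fold change 1.23 ± 0.05, SE), the libraries standing at 414 and 386 CPM against 169 and 173. Stat2 (0.40), Stat3 (0.35), Stat5b (0.30) and Jak2 (0.30) were also higher, and Stat4 was 0.632 times its level with mIL-21 (log2 fold change -0.66 ± 0.05). Again 6 of 9 passed, beside 37.7% of all genes, 5 of them higher, beside 19.6%, and 1 lower, beside 18.1% (adjusted p from 3.44e-12 for Stat5a to 0.000193 for Jak2, edgeR's quasi-likelihood test). No call changed when any library was left out. Jak1 (-0.07, 95% confidence interval -0.17 to 0.03), Jak3 (0.03, -0.09 to 0.15) and Stat6 (-0.01, -0.10 to 0.08) did not pass. Scaling by mapped reads changed the share of higher genes among all those called from 50.9% to 28.4% at 100 pM and from 51.9% to 41.1% at 1 nM, without turning the direction of any member that passed. With this scaling Stat6 passed at 100 pM (-0.21), as it did with limma (-0.20) and in a fit of the compared groups alone (-0.10).

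**Figure D3:**
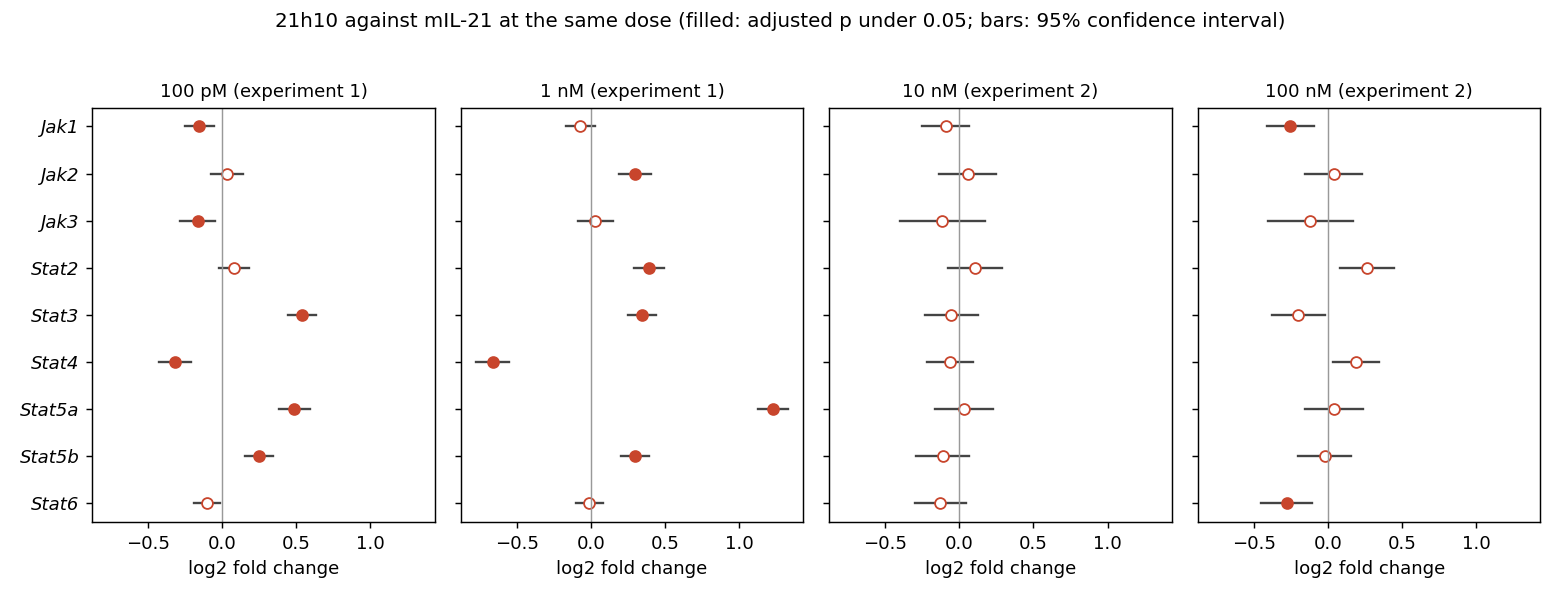
Log2 fold change between 21h10 and mIL-21 (x axis, above 0 where higher with 21h10) for the 9 genes (y axis) at each dose, with 95% confidence intervals from edgeR's fit and filled points where the adjusted p was under 0.05. Stat5a and Stat4 lie furthest from 0 at 1 nM, at 1.23 and -0.66, and at 10 nM every interval includes 0.

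Across doses, 100 pM of 21h10 and 1 nM of mIL-21 gave near values for most members. Stat5a alone passed the threshold, at 143.3 and 146 CPM under 21h10 against 169 and 173 under mIL-21 (log2 fold change -0.24 ± 0.05, SE; adjusted p = 0.0233, edgeR's quasi-likelihood test). Over all genes 0.737% passed. The other 8 had log2 fold changes of -0.15 to 0.04, with 95% confidence intervals that reached from -0.25 to 0.15 in all, and 3 of these had an unadjusted p under 0.05. The call of Stat5a was lost without any 1 of 7 libraries, at -0.25 to -0.22. They were both unstimulated libraries, both of mIL-21 at 100 pM, both of 21h10 at 100 pM and the second of mIL-21 at 1 nM.

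The step from 100 pM to 1 nM was tested within each protein. With mIL-21, Stat5a (log2 fold change 0.72), Stat3 (0.67), Stat5b (0.32) and Stat2 (0.23) rose and Stat4 (-0.36) and Jak1 (-0.17) fell, 6 of 9 beside 34.5% of all genes, the 4 higher ones beside 17.9%. The call of Jak1 was lost without either library of mIL-21 at 100 pM (-0.16 and -0.17) or the second at 1 nM (-0.13), and Stat6 (-0.10) gained one without either library of 21h10 at 1 nM (-0.10). With 21h10, Stat5a (1.46), Stat2 (0.54), Stat3 (0.47), Stat5b (0.37), Jak2 (0.37) and Jak3 (0.17) rose and Stat4 (-0.70) fell, 7 of 9 beside 39.2%, the 6 higher ones beside 20.1%. Here the call of Jak3 was lost without the first library of 21h10 at 1 nM (0.10) or the second at 100 pM (0.13). Scaled by mapped reads, 26.1% and not 51.9% of all genes called in the step of mIL-21 were higher, and 38.0% and not 51.4% in that of 21h10, while the direction of no member that passed was turned. With this scaling Stat2 lost its call in the step of mIL-21 (0.11) and Jak3 in that of 21h10 (0.11), and Stat6 gained one in the former (-0.22), each also with limma.

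Whether the effect of 21h10 against mIL-21 itself differed between the doses was tested as an interaction, which 5 of 9 members passed, beside 18.4% of all genes. The effect was larger at 1 nM by 0.74 ± 0.07 (SE, log2) for Stat5a, by 0.31 ± 0.07 for Stat2 and by 0.26 ± 0.07 for Jak2. It was further below 0 for Stat4, by -0.34 ± 0.07, and smaller for Stat3, by -0.19 ± 0.06 (adjusted p from 1.05e-06 for Stat5a to 0.0406 for Stat3, edgeR's quasi-likelihood test). Stat3 lost its call without any 1 of 9 libraries (-0.22 to -0.16), that is all but the second of 21h10 at 1 nM, and also by DESeq2 (adjusted p = 0.0729), limma (0.255), without the filter (0.113), with a replicate block (0.0641), scaled by mapped reads (0.270) and in the compared groups (0.0779). Stat4 lost its call with limma (adjusted p = 0.0648). Jak2 lost it without the second library of mIL-21 at 1 nM (0.21) or at 100 pM (0.24) or without either of 21h10 at 100 pM (0.26 and 0.27). Jak3, at 0.20 below the threshold, passed without the second library of mIL-21 at 1 nM or of 21h10 at 1 nM (0.26 each). Of all genes called in this test 45.4% were higher, 56.6% with DESeq2 and 58.7% when scaled by mapped reads.

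At 10 nM no member differed between the proteins by edgeR's quasi-likelihood test, the count being 0 of 9 (0 before adjustment at p under 0.05, 0 by DESeq2 or limma). Over all genes 0.00726% passed. The log2 fold changes ran from -0.13 for Stat6 to 0.11 for Stat2, and the 95% confidence intervals reached from -0.40 to 0.29. At 100 nM Jak1 (-0.25 ± 0.07, SE, log2) and Stat6 (-0.28 ± 0.08) were lower with 21h10, 2 of 9 beside 8.53% of all genes in either direction and 4.52% called lower. Jak1 was at 913 and 907 CPM with mIL-21 and 760 and 768 with 21h10, and Stat6 at 169 and 175 against 146 and 137.7, without overlap. Both calls were narrow (adjusted p = 0.0485 and 0.0458, edgeR) and were lost without any 1 of the libraries of mIL-21 at 100 nM, of 21h10 at 100 nM or of 21h10 at 10 nM, at -0.27 to -0.25 for Jak1 and -0.33 to -0.24 for Stat6. Stat2, higher by 0.26 and below the threshold, passed without either unstimulated library (0.26) and by DESeq2 (0.27). Of all genes called at 100 nM 47.1% were higher, and 30.1% when scaled by mapped reads.

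Between 10 nM and 100 nM no member passed with either protein. For mIL-21 the count was 0 of 9, with 0 at an unadjusted p under 0.05 and 0 by DESeq2 or limma, and 0% of all genes passed by edgeR (361 genes at an unadjusted p under 0.05, and 0 by DESeq2 or limma). The members' log2 fold changes were -0.19 to 0.07. For 21h10 it was 0 of 9 by edgeR, with 3 at an unadjusted p under 0.05, 1 by DESeq2 and 0 by limma, beside 5.33% of all genes. The largest were Stat4 (0.26 ± 0.07, SE, log2; adjusted p = 0.0529, edgeR) and Jak1 (-0.20 ± 0.07), which passed without either unstimulated library (0.26 and -0.20). The interaction between protein and dose gave 0 of 9 by edgeR, 1 at an unadjusted p under 0.05 and 0 by DESeq2 or limma, beside 0.922% of all genes.

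The whole response to cytokine, averaged over the 4 treated groups of an experiment, differed between the experiments for 8 of 9 members, beside 64.7% of all 14530 genes tested in a fit of all 20 libraries. With its sign, it was lower in experiment 2 for Stat3 (by -1.02 ± 0.08, SE, log2), Jak3 (-0.96 ± 0.13), Stat2 (-0.86 ± 0.08), Stat5b (-0.77 ± 0.07), Jak2 (-0.74 ± 0.08), Jak1 (-0.26 ± 0.07) and Stat6 (-0.26 ± 0.07), 7 of 9 beside 33.5% of all genes called lower. For Jak2 and Stat6 the means of all treated groups lay above unstimulated cells in experiment 1 and below them in experiment 2. Of these lower values only that of Stat6 with 21h10 at 100 nM passed the threshold. Stat5a went the other way, with a response larger by 0.49 ± 0.08. Stat4 did not pass (-0.14 ± 0.07, adjusted p = 0.0737, edgeR's quasi-likelihood test) and did so without the second library of mIL-21 at 1 nM, the first of 21h10 at 1 nM or at 100 pM, the first unstimulated library of experiment 2 or the first of mIL-21 at 10 nM (-0.20 to -0.16). It was also past the threshold when scaled by mapped reads (-0.31) and with limma (-0.31). Since the higher doses were used only in experiment 2, dose range and experiment cannot be told apart here.

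Because Stat5a and Stat5b moved unequally, their ratio was followed within each library, where scaling between libraries drops out. The RPKM of Stat5a relative to Stat5b was 0.947 and 0.991 in unstimulated cells of experiment 1. It was 0.561 and 0.549 under mIL-21 and 0.645 and 0.665 under 21h10 at 100 pM, and 0.737 and 0.731 under mIL-21 and 1.42 and 1.37 under 21h10 at 1 nM. The ratio thus first fell below that of unstimulated cells and exceeded 1 only with 21h10 at 1 nM. In experiment 2 it was 0.673 and 0.655 without cytokine and 1.21 to 1.40 in all 8 treated libraries. The ratio of Stat3 to Stat4 was 0.600 and 0.598 in unstimulated cells of experiment 1, and it reached 3.22 and 3.23 under 1 nM of 21h10. Unstimulated libraries of experiment 2 had ratios of 0.559 and 0.467. All 8 treated libraries there lay above both, at 0.578 to 0.842. Of the summed RPKM of the 6 STAT genes, Stat3 made up 19.0% in unstimulated cells of experiment 1 and 34.9% with 21h10 at 1 nM, Stat5a 12.04% and 21.9%, and Stat4 31.6% and 10.8%. In experiment 2 Stat4 held the largest share in all 5 groups, 30.2% to 38.8%.

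**Figure D4:**
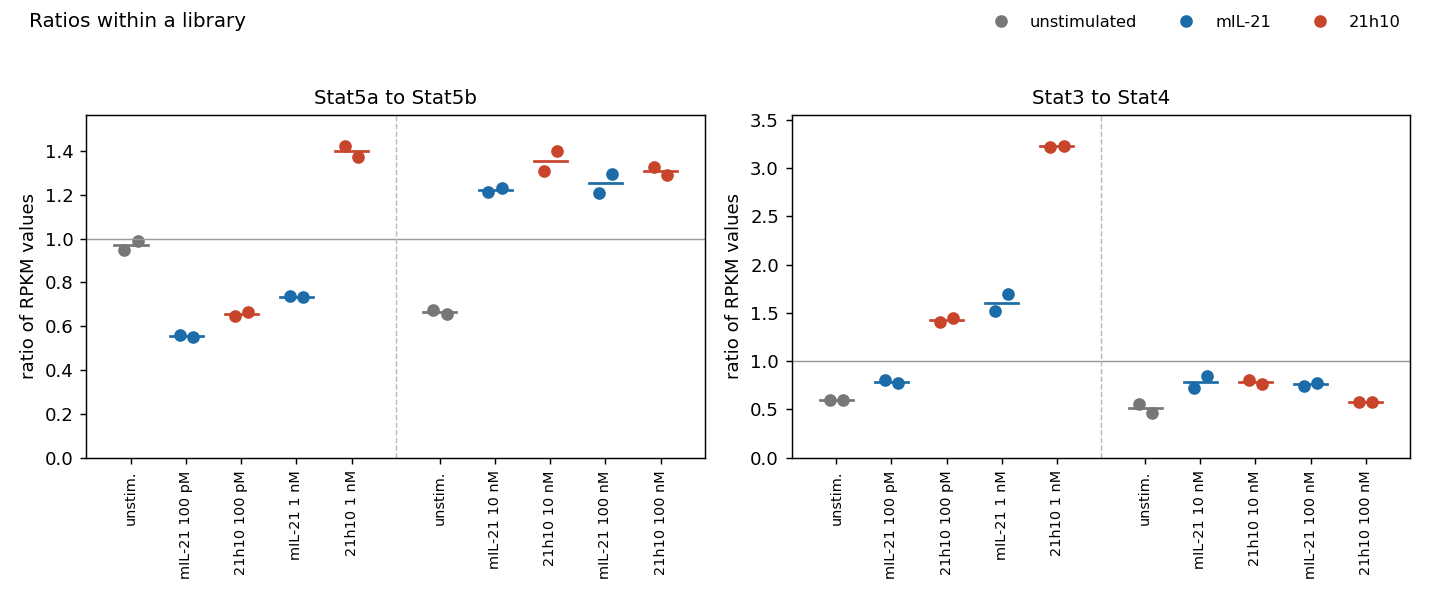
Ratio of RPKM values within each library (y axis, from 0) for Stat5a to Stat5b and for Stat3 to Stat4, by group (x axis), with points for the duplicates, a short line at their mean and a grey line at 1. Stat5a exceeds Stat5b with 21h10 at 1 nM and in all 8 treated libraries of experiment 2, and Stat3 to Stat4 is highest, near 3.2, with 21h10 at 1 nM.

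**Figure D5:**
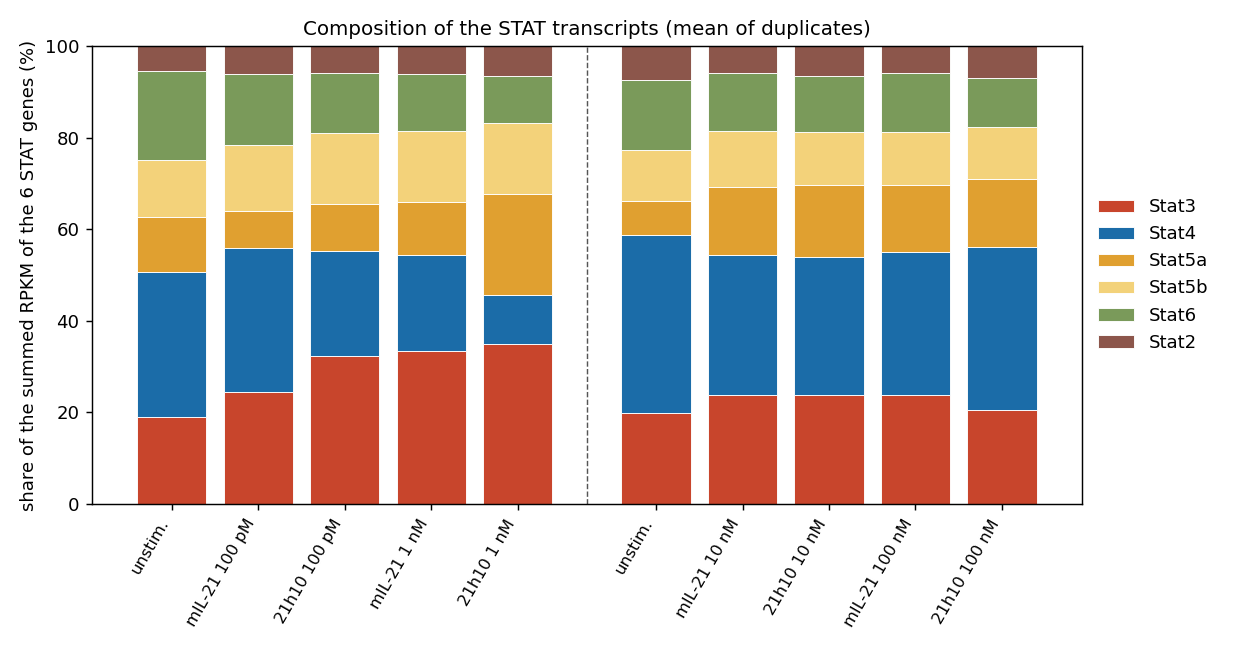
Share of each STAT gene in the summed RPKM of the 6 (y axis, percent, mean of duplicates) by group (x axis), with experiment 1 left of the dashed line. The share of Stat4 is 10.8% with 21h10 at 1 nM and at least 20.9% in every other group.

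Other parts of the pathway were described through lists of 17 cytokine receptor chains (JAK-binding chains with the alpha chains Il2ra and Il6ra, which bind no JAK themselves), 18 negative regulators and 8 nuclear partners, all of whose genes were tested in both experiments. Between 21h10 and mIL-21 at 100 pM, 5 receptor chains were higher and 6 lower, 6 regulators higher and 6 lower, and 3 partners higher and 1 lower, beside 19.6% higher and 19% lower of all genes. Their median log2 fold changes were -0.01, 0.06 and 0.13, beside -0.01 over all genes. At 1 nM the counts were 6 and 7, 7 and 2, and 3 and 2, beside 19.6% and 18.1% of all genes, with medians of 0.00, 0.10 and 0.22. Against unstimulated cells 21h10 at 1 nM raised 11 receptor chains and lowered 5, 16 of 17 beside 80.3% of all genes in either direction and 38.3% called higher, and the median of the chains was 0.75 beside -0.04 over all genes.

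Within these lists Socs3, whose product blocks JAK kinases on receptors of the gp130 type, differed most among the regulators. It was at 47.8 and 44.6 CPM under mIL-21 and 172 and 169 under 21h10 at 100 pM (log2 fold change 1.88), and at 296 and 312 against 686 and 606 at 1 nM (1.09), beside 6.57 and 6.67 in unstimulated cells. Usp18, a brake on interferon receptor signalling, was lowest, with -0.74 at 100 pM and -0.96 at 1 nM, at 12.8 and 13.8 CPM for mIL-21 against 7.27 and 6.54 for 21h10 at the latter dose. Among receptor chains Il2ra, the alpha chain of the IL-2 receptor, was higher at 100 pM (0.72, with 736 and 737 against 1214 and 1213 CPM) and Ifngr2, a chain of the interferon gamma receptor, lower (-0.66, with 17.7 and 18.9 against 11.2 and 11.8 CPM). At 1 nM Il6ra, the IL-6 receptor, was higher (1.45, with 2.74 and 3.19 against 7.75 and 8.42 CPM) and Il10ra, the IL-10 receptor, lower (-0.77, with 91.6 and 90.5 against 53.0 and 53.8 CPM). Of the nuclear partners Bcl6, a repressor, was higher at 100 pM (0.84) and Jun, a subunit of AP-1, at 1 nM (0.97), whereas Irf9, the DNA-binding partner of Stat2, was lower at both (-0.59 and -0.28). All these values passed the threshold of edgeR's quasi-likelihood test. Il6ra was low at 1 nM (mean RPKM 0.73 with mIL-21, 1.93 with 21h10). In experiment 2 at 100 nM some directions turned. Il6ra had 38.7 and 38.9 CPM with mIL-21 against 13.4 and 12.7 with 21h10. Ifngr2 had 3.79 and 4.48 against 5.90 and 7.21, and Socs3 293 and 291 against 262 and 261. Il2ra and Jun stayed higher with 21h10, Il10ra, Usp18 and Irf9 stayed lower, and the Bcl6 libraries overlapped.

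Across the 10 group means, centred within each experiment, Stat3 and Stat5b varied most alike of all pairs of members (Pearson's r = 0.99), followed by Jak2 and Stat2 (0.96) and Jak1 and Jak3 (0.93). Stat4 and Stat5a varied in opposite directions (-0.73), and the highest coefficient of Stat6 with any other member was 0.402, with Jak1. These coefficients rest on 10 points that share the libraries and their scaling and are given as a description only. Among 10517 genes with a mean of at least 1 RPKM over all libraries, the profiles most like that of Stat5a were those of Tmem158 (0.994), Sptlc2 (0.994) and Etv6 (0.991). Those most like Stat3 were E330009J07Rik (0.996), Lat2 (0.993) and Slc25a30 (0.992), and those most like Jak3 were Gabbr1 (0.994), Tbc1d9b (0.989) and Man2b2 (0.988). Etv6, a repressor of the ETS family, for example, was at 73.7 CPM in unstimulated cells of experiment 1, 61.2 at the lower dose of mIL-21 and 210 at the higher dose of 21h10. Tmem158 had a mean RPKM of 6.26 with 21h10 at 1 nM, where Stat5a was also highest, and of 0.05 to 0.95 in every other group. It met the required mean of 1 RPKM only through that group, and its likeness to Stat5a was not tested without it.

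Promoters from RefSeq (GRCm38.p6), from 250 bases before to 50 bases after the start site, were matched for all 9 members, 12 promoters in all. STAT dimers of most kinds bind palindromes of TTC and GAA. The form TTCNNNGAA, which reads alike on both strands, occurred in none of the 12, beside 8.298% of all 32851 promoters, and the wider form TTCNNNNGAA in 1, that of Stat2, beside 6.953%. The Stat2 promoter also held GAAANNGAAA on the reverse strand, a pattern of interferon response elements that was chosen after the sequence had been seen and occurred in 3.443% of all promoters and in those of Stat2 and Stat4 among the members. The first 100 bases of the Stat2 window (chr10:128270248-128270347, plus strand, upstream of the start site) are shown because both patterns lie there next to each other, 222 and 210 bases before the start, in capitals.
Stat2: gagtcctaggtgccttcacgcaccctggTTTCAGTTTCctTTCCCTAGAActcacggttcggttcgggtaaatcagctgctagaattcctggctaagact
These are matches of letters in a window and not bound sites. Stat2 rose in all 4 treatments of experiment 1 and passed the threshold in none of experiment 2. Jak1, Jak2, Jak3, Stat3 and Stat5b, whose promoters held neither pattern, also rose in all 4 treatments of experiment 1. No binding was measured in these libraries.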

How the data were processed

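RNA was sequenced from 20 libraries. As the study's methods and the submitters' processing notes give it, the authors mapped NovaSeq reads to mm10 (GRCm38) with TopHat2 2.0.11 and Bowtie2 2.2.6 and counted reads on exons. SAMtools 0.1.8, bedtools 2.25.0 and edgeR are also named. The counting tool, its use of strand and the annotation version are not given in the sources used here. The deposited counts are raw whole numbers, 1 per RefSeq transcript. The deposited RPKM values were made by the authors from these counts, transcript lengths and mapped reads. Of 31682 transcripts the longest stood for each symbol.

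Counts were tested here with edgeR 4.0.16 in R 4.3.3 (filterByExpr with a least count of 10 and a least total of 15, TMM, glmQLFit, glmQLFTest), fitting the 10 libraries of each experiment together with the group as the only factor. Alternatives used DESeq2 1.42.0 and limma 3.58.1 on log2(RPKM + 1), no filter, the compared groups only, a replicate block, mapped reads as library sizes, the most-read transcript and each library left out. Named list genes had the largest and smallest log2 fold change past the threshold, and likeness was Pearson's r of mean log2 CPM (prior count 2). Overlaps used GENCODE vM21, BLAST 2.17.0 and Python 3.11.15. The fits were tested on simulated data. The members, lists and rules were chosen with earlier results of these data known.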

Additional observations from a re-analysis of the deposited data

Results flagged for a closer look

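For 5 members the difference between 21h10 and mIL-21 changed with the dose in experiment 1, by a test of that change itself (edgeR's quasi-likelihood test of the interaction). The change of the log2 fold change from 100 pM to 1 nM was 0.26 for Jak2, 0.31 for Stat2, -0.19 for Stat3, -0.34 for Stat4 and 0.74 for Stat5a. The call of Stat3 was lost in 6 of the 7 alternative fits, and that of Stat4 with limma. The fit in which Stat3 kept its call used the most-read transcript, which for Stat3 has the same counts as the main fit. For 8 members the response to cytokine differed between the experiments, by a test in a fit of all libraries. The response in experiment 2 less that in experiment 1 was -0.26 for Jak1, -0.74 for Jak2, -0.96 for Jak3, -0.86 for Stat2, -1.02 for Stat3, 0.49 for Stat5a, -0.77 for Stat5b and -0.26 for Stat6 on the log2 scale. The doses differ between the experiments as well, and the 2 cannot be told apart.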

How the results depend on the processing

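The counts of members past the threshold stayed within 1.5 times their values under most alternatives, and the exceptions follow. For 21h10 at 100 pM against mIL-21 at 1 nM the count of 1 became 0 with limma and with mapped reads as library sizes. The interaction of experiment 1 gave 3 with limma against 5. At 100 nM limma gave 1 and a fit of the compared groups alone 5 against 2. For 21h10 at 100 nM against unstimulated cells mapped reads gave 3 against 6, and for 21h10 at 100 nM against 10 nM the count of 0 became 1 with DESeq2, 1 with the replicate block and 3 in a fit of the compared groups. Leaving out each library in turn gave 0 to 1 for the comparison across doses, 3 to 6 for the interaction of experiment 1, 0 to 3 at 100 nM, 2 to 6 for 21h10 at 100 nM against unstimulated cells and 0 to 2 for the last comparison. Direction turned in 7 cases in which the main or the alternative fit made a call. Scaled by mapped reads, Stat5b was -0.0038 with 21h10 at 10 nM and Jak1, Stat3 and Stat5b -0.095, -0.0011 and -0.045 with 21h10 at 100 nM, all against unstimulated cells. For 21h10 at 100 nM against unstimulated cells limma on RPKM gave -0.094 for Jak1, -0.18 for Stat4 and -0.038 for Stat5b. Both use the authors' mapped reads without TMM, which lowered the median of all genes there. Values called in neither fit turned more often. There were 39 such cases with a library left out, 16 scaled by mapped reads, 14 with limma, 6 with DESeq2, 4 without the filter and 2 in the compared groups. Among them was Jak2 against unstimulated cells without the second unstimulated library (0.04 for mIL-21 at 100 nM, 0.02 and 0.07 for 21h10). No source says that a replicate number marks a shared mouse or day, and the libraries were not treated as paired. The deviations of like-numbered libraries correlated at -0.06 to 0.03 between groups in experiment 1 and at -0.17 to 0.23 in experiment 2, where 3 of 10 pairs of groups were above 0.1 and 1 below -0.1. With the replicate block the interaction count was 4 against 5, without Stat3, and the block moved 1 other call, that of Stat4 for 21h10 at 100 nM against 10 nM. Over all genes, counts moved by more than 1.5 times in experiment 2 and across doses. At 10 nM 1 gene passed against 12 with DESeq2, 179 without the filter, 4 with the block, 117 higher and 26 lower in the compared groups and 0 with limma, and at 100 nM 1175 against 2026 in the compared groups. For 21h10 at 100 nM against 10 nM it was 734 against 1150 without the filter, 1553 in the compared groups and 409 with limma. For mIL-21 it was 0 against 14 without the filter. The interaction of experiment 2 gave 127 against 211 with DESeq2, 257 without the filter, 265 in the compared groups and 63 with limma, and the comparison across doses 103 against 195 without the filter and 41 with limma. Using the most-read transcript changed no call, since it is the longest for all 9 members.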
